A study of Caenorhabditis elegans with 2 samples.

Results

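The Wnt pathway genes of Caenorhabditis elegans are described here by the CEH-16 ChIP-seq intervals at each of them. The 30 genes were chosen by name, from the ligands to the nuclear effectors, out of 19973 protein-coding genes. A summit, the position of highest enrichment in an interval, was counted for a gene when it lay inside the gene or within 3 kb of either end. ChIP-seq sequences the DNA fragments that come down with an immunoprecipitated protein, in this case CEH-16, a homeodomain factor of the engrailed class. The 2 samples are biological replicates 1 and 2 of 1 group, whole L2 larvae with both sexes pooled, and no second stage, genotype or untagged strain was analysed here. Both came from strain OP82, which carries the unc-119 allele tm4063 on chromosome III and wgIs82, an insertion labelled as targeting ceh-16, and the protein is described as an eGFP fusion. The antibody is labelled ceh-16.

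Wnt ligands are secreted glycoproteins that bind Frizzled and related receptors and signal through Dishevelled. In the canonical branch this stops a destruction complex of Axin, APC, GSK-3 and CK1 from degrading beta-catenin. Many larval worm cells, among them the epidermal seam cells in which ceh-16 is known to act, divide under a variant called the Wnt/beta-catenin asymmetry pathway. There WRM-1 and the kinase LIT-1 lower nuclear POP-1, the TCF factor, while SYS-1 serves as the coactivator of POP-1.

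Of the 30 genes, 6 had a summit of the optimal IDR list in the gene or within 3 kb. The list keeps peaks that passed a threshold on the irreproducible discovery rate (IDR). A place in it does not by itself mean similar ranks in both replicates. The genes were mom-1, which encodes the Porcupine acyltransferase of Wnt ligands, mig-5 and dsh-2, which encode Dishevelled proteins, the beta-catenin gene sys-1, the Nemo-like kinase gene lit-1 and pop-1. Their share was 20%, against 10.7% of all protein-coding genes by the same rule. None of the 5 ligands, 7 receptors or 5 destruction complex genes had one. In classes this small, having none is near the share of all protein-coding genes. The 6 genes held 8 IDR peaks, since mom-1 and lit-1 had 2 each.

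The optimal IDR list held 1358 peaks. Relaxed lists, which keep weak background intervals too, had 28214 entries in replicate 1, 30000 in replicate 2 and 30000 after pooling. Each interval carries the authors' signal value, whose lowest value in the IDR list was 23.2. Signals are given as deposited and were not rescaled between lists. For the IDR peaks, the rank in the IDR list and in each replicate list is therefore given as well. No read counts were given, so the depth behind a signal is unknown. Nothing in the labels says how the 2 cultures were raised, and peak lists from 1 group allow no test between conditions, so counts and ranks are given as a description. ChIP from whole larvae averages over all cells, and fewer bound cells cannot be told apart from weaker binding per cell.

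The sequences of the strongest IDR peak at mom-1, mig-5, dsh-2 and lit-1 are shown as examples of the DNA under the peaks, and those at sys-1 and pop-1 are not printed here. They are the plus strand of ce11 (WBcel235), from the RefSeq assembly of that build. Capitals mark a match, on either strand, to a homeodomain core, the TCF core or a GATA site. The homeodomain core was searched as TAATTA, which reads alike on both strands, and as TAATTG with its reverse complement CAATTA. The TCF core was CTTTGA. The 4 GATA sites were TGATAA and TGATAG, and AGATAA and AGATAG. The printed peaks cover chrX:6296499-6296605 at mom-1, chrII:8185063-8185358 at mig-5, chrII:5081236-5081531 at dsh-2 and chrIII:13717584-13717879 at lit-1.
mom-1: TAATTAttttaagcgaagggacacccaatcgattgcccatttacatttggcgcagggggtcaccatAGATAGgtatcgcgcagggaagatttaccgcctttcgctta
mig-5: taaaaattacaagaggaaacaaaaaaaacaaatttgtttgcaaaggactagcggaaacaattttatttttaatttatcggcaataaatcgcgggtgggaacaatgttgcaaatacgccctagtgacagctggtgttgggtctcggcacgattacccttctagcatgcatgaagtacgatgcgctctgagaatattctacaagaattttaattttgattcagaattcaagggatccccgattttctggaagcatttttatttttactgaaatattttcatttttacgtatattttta
dsh-2: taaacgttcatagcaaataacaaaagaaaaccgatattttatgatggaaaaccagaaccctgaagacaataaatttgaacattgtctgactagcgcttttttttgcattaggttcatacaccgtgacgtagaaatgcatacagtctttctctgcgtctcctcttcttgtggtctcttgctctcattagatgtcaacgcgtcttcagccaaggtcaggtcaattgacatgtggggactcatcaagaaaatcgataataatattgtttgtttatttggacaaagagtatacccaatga
lit-1: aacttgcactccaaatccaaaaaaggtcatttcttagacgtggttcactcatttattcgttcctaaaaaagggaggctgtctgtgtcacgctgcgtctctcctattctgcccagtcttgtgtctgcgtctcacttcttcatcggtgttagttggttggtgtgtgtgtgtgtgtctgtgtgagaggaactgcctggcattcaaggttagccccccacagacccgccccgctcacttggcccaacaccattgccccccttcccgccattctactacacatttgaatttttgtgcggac

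Only the mom-1 sequence held capitals, TAATTA at chrX:6296499-6296504 and AGATAG at chrX:6296565-6296570. Within 100 bp of the summit, 1 of the 8 IDR peaks at these genes held a homeodomain core, against 15.4% of all 1358 IDR windows and 20.9% of all pooled windows. None held the TCF core, which was in 8.39% of IDR windows and 14% of pooled windows. A GATA site was in 1 of the 8, against 39.4% of IDR windows and 35.2% of pooled windows. Within 150 bp the only further match was 1 TCF core near the sys-1 summit. At that width the TCF core was in 14.4% of IDR windows and 20.7% of pooled windows, a homeodomain core in 24.4% of IDR windows and a GATA site in 52% of them.

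The ligand genes had intervals of the relaxed lists alone. The median of their strongest pooled signals was 9.49, against 7.54 for all protein-coding genes, with no interval taken as 0. mom-2, the ligand that polarises early blastomeres, had the strongest interval, a pooled signal of 13.8 with 6.08 and 7.46 in replicates 1 and 2. That summit lay 1111 bp downstream of mom-2 and 133 bp from a TSS of the neighbouring gene mpdu-1 (a TSS being the 5′ end of an annotated coding transcript). cwn-1 followed with 10.1 inside a coding exon (5.54 and 3.21) and egl-20, which guides migrating neuroblasts, with 9.49 at 2568 bp downstream. The egl-20 interval had 9.52 in replicate 1 and none overlapping in replicate 2, and was 673 bp from a TSS of dct-15. lin-44, which orients asymmetric divisions in the tail, had 4.72 in an intron and no interval in replicate 1. cwn-2 had no pooled interval, and its strongest were 2.37 in replicate 1 and 4.35 in replicate 2. The nearest IDR summits to the 5 genes were 6.9 to 106.2 kb away.

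The 2 genes that act in ligand secretion stood far apart. mom-1 (WBGene00003394, chrX:6293112-6298305, plus strand) had the strongest IDR peak of the 30 genes, with signal 116 in the IDR list, where it ranked 11 of 1358. Its signal was 118 in the pooled list, 59.6 in replicate 1 and 56.6 in replicate 2, and it ranked 23 in each replicate list. The 3 relaxed lists place it alike, near the top. The summit lay in an intron, 3411 bp downstream of the nearest TSS, and no other protein-coding gene was within 3 kb. The interval was 107 bp wide, while 50 of the 1358 IDR peaks were narrower than the median of 296 bp. All of its 31-mers occur once in the genome.

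A second mom-1 peak, at chrX:6292217-6292512, had signal 25.6 in the IDR list, ranked 1146, and 31.2 in the pooled list. It had 11.5 in replicate 1 and 15.4 in replicate 2. It lay 747 bp upstream of mom-1 and 633 bp upstream of lev-9, which is on the opposite strand. It overlapped the tRNA gene WBGene00023133, as 36 IDR peaks overlapped a tRNA gene, and 83.5% of its 31-mers occur once in the genome. How far the tRNA gene accounts for this peak was not tested. mig-14, the Wntless gene whose product carries Wnt to the cell surface, had no IDR summit within 79.4 kb. Its strongest pooled signal was 13.4 (6.86 and 7.16 in replicates 1 and 2), 1457 bp downstream and nearest to a TSS of arrd-14.

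sfrp-1, which encodes a secreted Frizzled-related inhibitor, had 1 pooled interval of signal 5.02 at 315 bp upstream, which overlapped a piRNA gene. It had 3.32 in replicate 1 at that place and none overlapping in replicate 2.

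**Figure D1:**
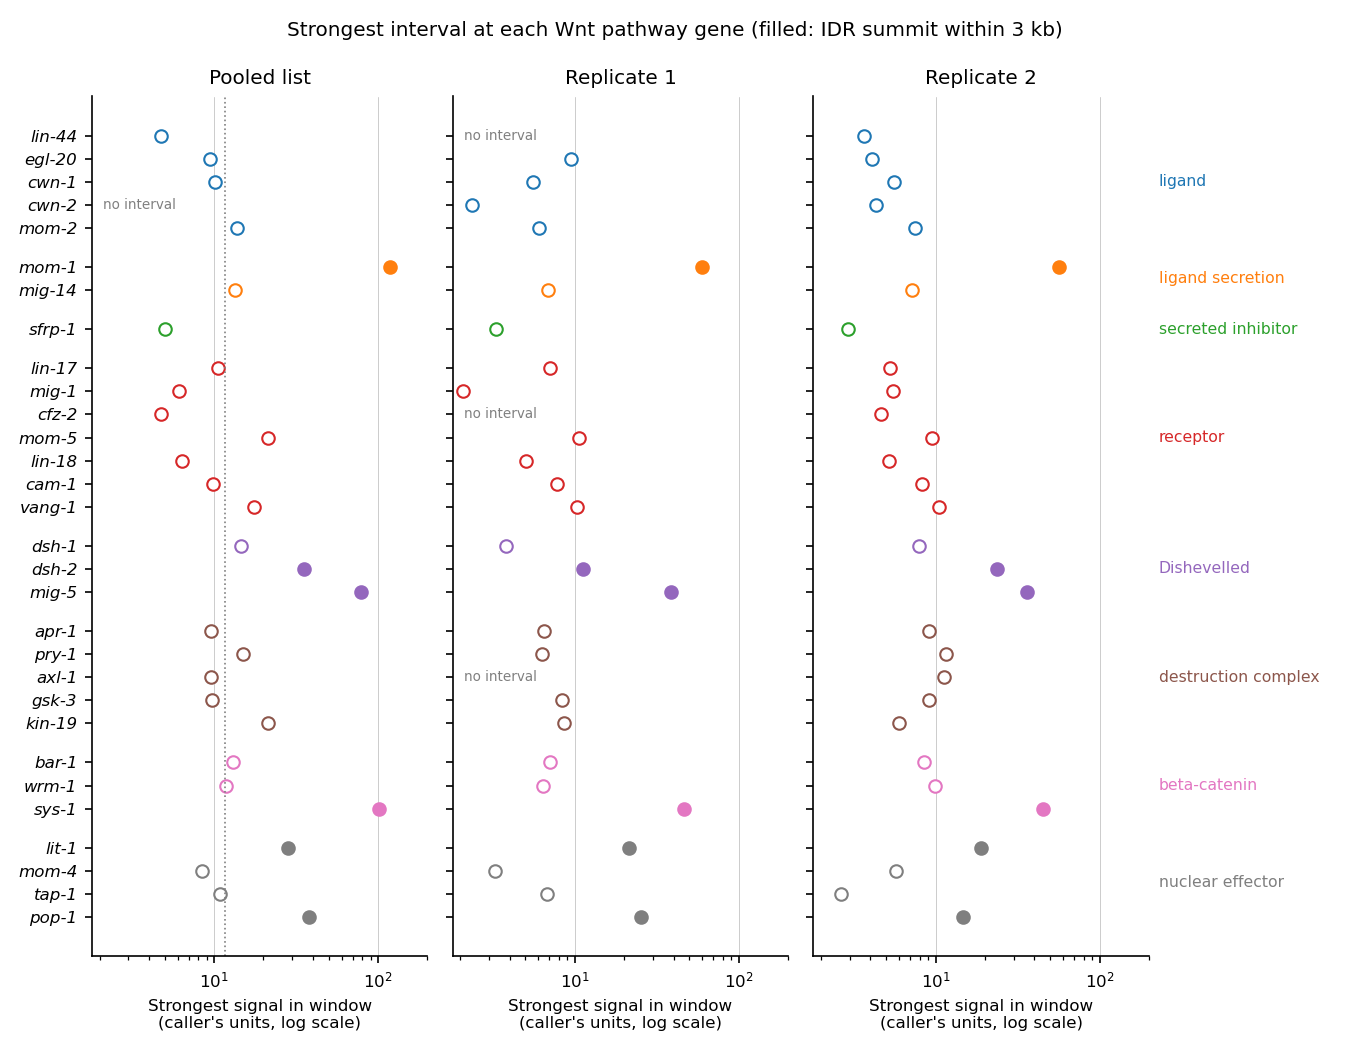
Strongest signal in the gene or within 3 kb for each of the 30 genes, in the pooled, replicate 1 and replicate 2 lists (log scale, the authors' caller units). Filled points are the 6 genes with an IDR summit, and the dotted line marks 11.6, 0.5 of the lowest IDR signal. mom-1, sys-1 and mig-5 lie highest in all 3 lists.

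None of the 7 genes classed here as receptors had an IDR summit, with the planar polarity gene vang-1 counted among them. For 7 genes, this is near the 10.7% of all protein-coding genes. Among the 4 Frizzled genes, mom-5 had the strongest pooled interval, 21.4 at 2598 bp upstream, with 7.38 and 9.54 in replicates 1 and 2. That summit was nearer to a TSS of algn-10, at 999 bp, and the interval overlapped a noncoding RNA gene. lin-17, the Frizzled receptor used in many asymmetric divisions, had 10.5 at 479 bp upstream. mig-1 had 6.07 and cfz-2 had 4.75, and cfz-2 lay 802.8 kb from the nearest IDR summit. The pooled medians were 8.27 for the 4 Frizzled genes and 9.87 for all 7 receptors.

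vang-1, the Van Gogh gene of planar polarity, was the most densely covered gene of the receptor class, with 8 pooled summits in 10.8 kb (0.739 per kb). Its strongest, 17.5, lay 294 bp upstream with 10.3 and 10.4 in replicates 1 and 2, and overlapped a noncoding RNA gene. cam-1, the ROR kinase gene, also had 8 pooled summits, but in 20.4 kb, and its strongest was 9.87 in an intron. lin-18, the Ryk gene, had 6.35 inside a coding exon and no replicate 1 interval there.

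The 3 Dishevelled genes differed widely. mig-5 (WBGene00003241, chrII:8182323-8185023, minus strand) had an IDR peak of signal 70.1, ranked 100, with 78.8 in the pooled list. It had 38.6 in replicate 1 and 36.3 in replicate 2, where it ranked 113 and 111. Its summit was 188 bp upstream of mig-5 and 232 bp upstream of the divergent gene cct-1, a chaperonin subunit gene, so the peak lies between 2 starts. dsh-2 (WBGene00001102, chrII:5078233-5081174, minus strand), which controls asymmetric neuroblast divisions, had 31.1 in the IDR list, ranked 801, and 35.3 in the pooled list. Its 2 replicates differed, with 11.2 in replicate 1 (rank 1921) and 23.6 in replicate 2 (rank 401). The summit was 210 bp upstream of dsh-2 and 106 bp past the 3′ end of C04G6.4.

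dsh-1, the remaining paralog, had no IDR summit within 72.6 kb. It had 7 pooled summits in a window of 17.0 kb, the strongest 14.6 in a coding exon, with 3.78 in replicate 1 and 7.96 in replicate 2.

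The 5 destruction complex genes had weak to intermediate intervals. kin-19, the CK1 alpha gene, had 21.4 at 1160 bp upstream, with 8.57 and 6.0 in replicates 1 and 2. pry-1, the Axin gene, had 15.1 at 1926 bp upstream, with 3.75 and 7.07. gsk-3, apr-1 (the APC gene) and axl-1 (a second Axin gene) had 9.74, 9.60 and 9.58. The gsk-3 interval had 7.7 in replicate 1 and none overlapping in replicate 2, and was 911 bp from a TSS of Y18D10A.4. The apr-1 interval had none overlapping in replicate 1 and 9.09 in replicate 2, and was 100 bp from a TSS of K04G2.7. The interval at axl-1 was 95 bp from a TSS of sec-12, and axl-1 had none in replicate 1. gsk-3 had the densest window of the 30 genes, 12 pooled summits at 0.969 per kb, each of signal 9.74 or less.

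Of the beta-catenin genes, sys-1 (WBGene00006379, chrI:9980063-9984794, minus strand) had an IDR peak of signal 93.7, ranked 33. It was 102 in the pooled list, 46.3 in replicate 1 and 45.3 in replicate 2. This summit lay 165 bp past the 3′ end of sys-1 and 236 bp upstream of eif-3.C, a translation initiation factor gene on the same strand, and 3171 bp from the nearest TSS of sys-1. The TSS nearest to the peak is that of eif-3.C. At its own 5′ end sys-1 had pooled signals of 15.6 at 354 bp and 22.1 at 1145 bp upstream, neither overlapping an IDR peak. The first had no overlapping interval in replicate 1 and 11.8 in replicate 2, and the second had 8.66 and 13.3. bar-1, the canonical beta-catenin gene, had 13.0 at 2656 bp upstream and wrm-1 had 11.8 at 1095 bp upstream, and for both the interval overlapped one of replicate 2 alone (8.54 and 9.97).

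The nuclear effectors were 2 genes with and 2 without an IDR summit. pop-1 (WBGene00004077, chrI:2822243-2830311, minus strand) had a peak of 40.1, ranked 465, at chrI:2833046-2833341. It was 37.8 in the pooled list, 25.4 in replicate 1 and 14.6 in replicate 2. The summit lay 2883 bp upstream, with no other protein-coding gene within 3 kb. A second pooled interval, 21.0 at 1287 bp upstream, had 15.9 and 3.89 in replicates 1 and 2, overlapped a noncoding RNA gene and was not an IDR peak.

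lit-1 (WBGene00003048, chrIII:13701991-13724404, plus strand) had 23 pooled summits in a window of 28.4 kb, the most of the 30 genes. Its 2 IDR peaks were both intronic, 2871 bp apart, and the replicate with the stronger signal differed between them. The peak 233 bp upstream of an internal TSS had signal 25.1, ranked 1180, with 3.22 in replicate 1 (rank 17687) and 18.9 in replicate 2 (rank 669). The peak 1207 bp downstream of a TSS, at chrIII:13720455-13720750, had 24.1, ranked 1271. It had 15.1 in replicate 1 (rank 1113) and 3.60 in replicate 2 (rank 14348). Another pooled summit, 21.5 at 1971 bp downstream of a TSS, had 21.3 and 8.90 in replicates 1 and 2, overlapped a noncoding RNA gene and was not an IDR peak. mom-4, the TAK1-like kinase gene that activates LIT-1, and tap-1, a TAB1-like gene, had 8.45 and 10.8 with the nearest IDR summits 25.5 and 8.0 kb away.

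**Figure D2:**
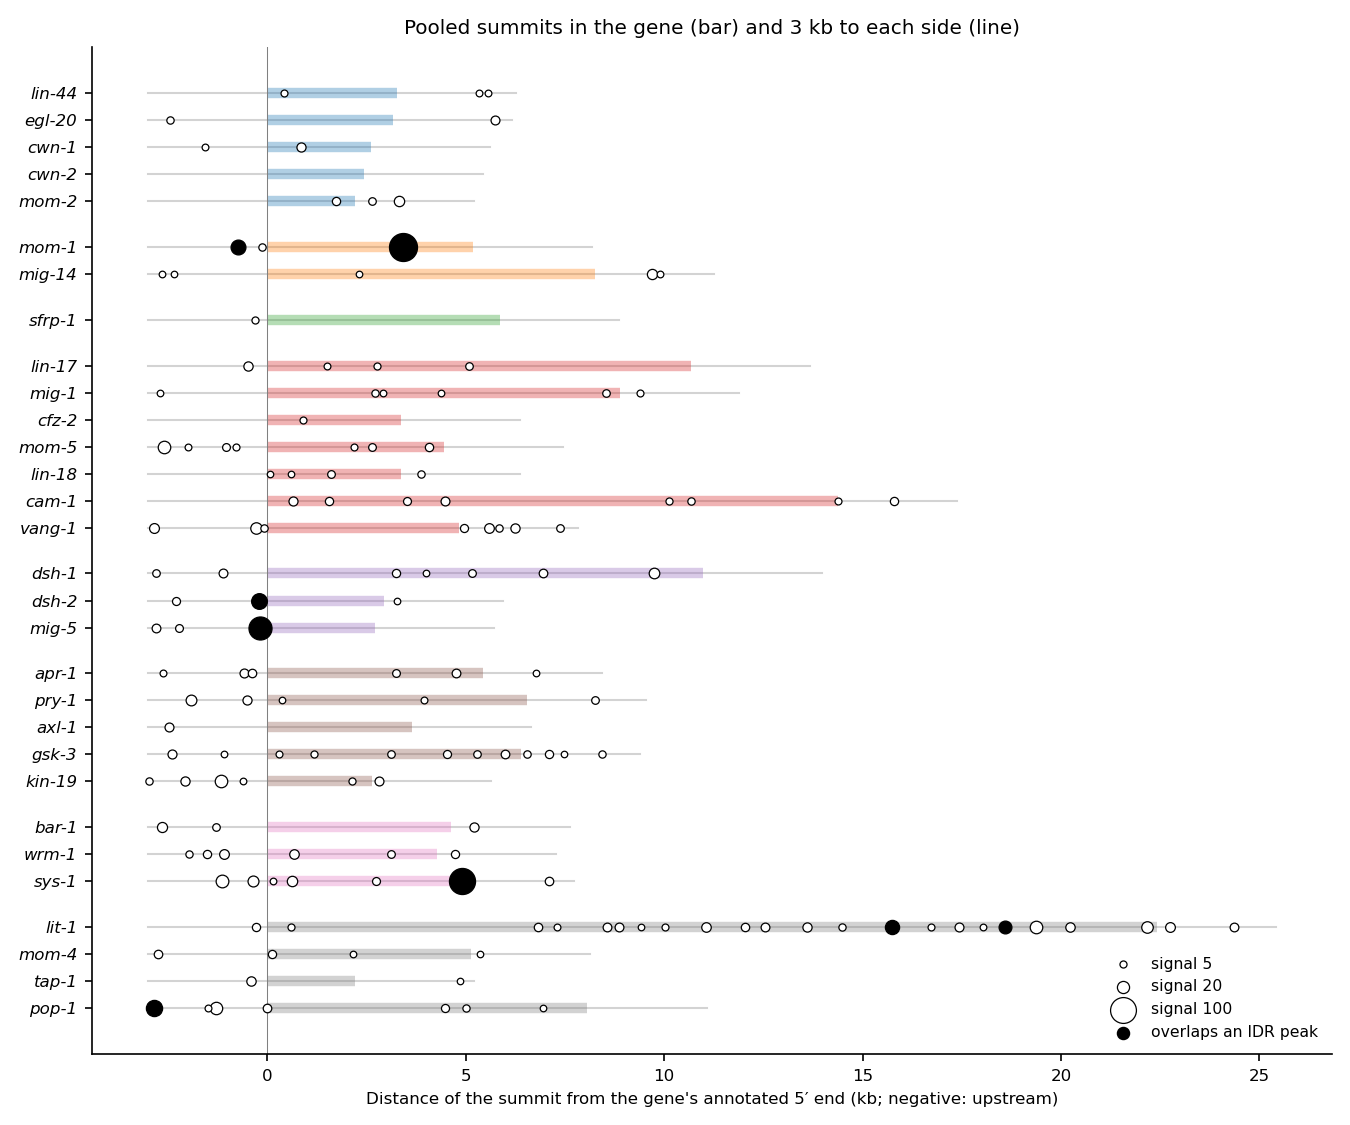
Pooled summits along each of the 30 genes, as distance in kb from the annotated 5′ end, with the gene as a bar, 3 kb to each side as a line and the area of a point growing with signal. Black points overlap an IDR peak, and they lie just upstream of mig-5, dsh-2 and mom-1, past the 3′ end of sys-1, far upstream of pop-1 and inside mom-1 and lit-1.

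The genes nearest to the limit of 3 kb were pop-1 inside it, at 2883 bp, and gsk-3 and wrm-1 outside it, at 3385 and 3548 bp. The IDR summit near gsk-3 had signal 25.9 and was 73 bp from a TSS of Y18D10A.4. The one near wrm-1 had signal 49.0 and was 3187 bp from a TSS of arf-1. With the gene body alone, 2 of the 30 genes had an IDR summit, mom-1 and lit-1, against 1.67% of all protein-coding genes. Counting only the gene that owns the nearest TSS, a rule added after the data were seen, sys-1 was lost and 5 genes were left, against 5.15%. Counting only the nearest gene body, dsh-2 was lost in its place, also leaving 5, against 5.23%. Within 1000 bp pop-1 was lost, leaving 5, against 6.44%. With IDR peaks at or above the median signal of the list, 4 of the 30 were left, against 5.62%.

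Wnt pathway genes are longer than most, and a longer window can hold more summits. Their median window, gene and flanks together, was 10.7 kb, against 8.0 kb for all protein-coding genes. Among windows of 9.6 to 108.8 kb, 4 of 18 Wnt pathway genes had an IDR summit (22.2%), against 15.2% of all genes there. Among windows of 8.0 to 9.6 kb 2 of 12 did (16.7%), against 10.5%. None of the 30 had a shorter window, where the share of all genes was 9.21% at 6.0 to 7.2 kb and 7.95% at 7.2 to 8.0 kb. These shares were not tested.

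The weaker intervals were set against all protein-coding genes without matching for window length, although none of the 30 windows was shorter than 8.0 kb. The strongest pooled interval of a window was nearest to a TSS of the member itself at 18 of the 30 genes. The median of the strongest pooled signal was 11.3 for the 30 genes and 7.54 for all protein-coding genes, with a gene that has no interval taken as 0. Among genes without an IDR summit it was 9.96 for the 24 Wnt pathway genes and 6.95 for all 17837 protein-coding genes, and the differences were not tested. Of the 30, 15 had a pooled summit of signal 11.6 or more, 0.5 of the lowest IDR signal (50%), against 29.2% of all genes. That cut comes from the IDR list and was applied to pooled signals, which were not rescaled to it. The genes that passed were 5 of the 15 from ligands to receptors and 10 of the 15 from Dishevelled to the nuclear effectors. This division was made after the values were seen. By the same division, IDR summits were at 5 of the 15 genes from Dishevelled onward (33.3%), against 10.7% of all protein-coding genes. Window length was not matched here either. Among the other 15 genes mom-1 alone had one (6.67%). The 5 genes with a summit include sys-1, whose peak was nearest to a TSS of eif-3.C, and no destruction complex gene. Since the division followed the values, the contrast between its sides is a description alone. Any pooled summit was at 29 of the 30, against 85.6% of all genes. Replicate 1 had one at 27 (85.7% of all genes) and replicate 2 at all 30 (87.9%).

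**Figure D3:**
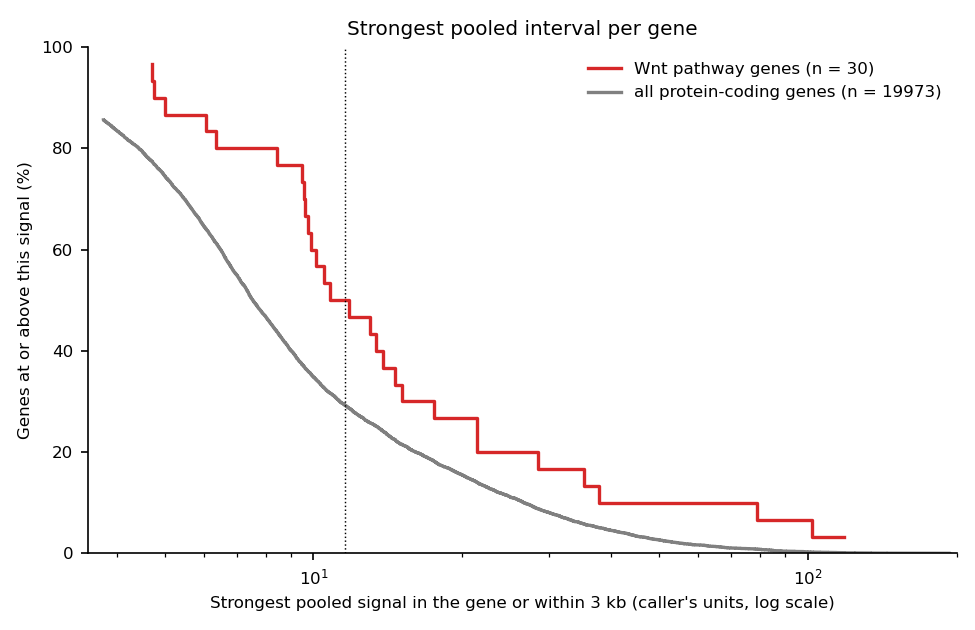
Share of genes, in percent, whose strongest pooled signal in the gene or within 3 kb is at or above the value on the log x axis, for the 30 Wnt pathway genes (red) and all 19973 protein-coding genes (grey). The dotted line marks 11.6, where the shares are 50% and 29.2%. Window length was not matched.

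Of the 152 pooled summits counted for the 30 genes, 49 lay upstream and 48 in introns. Coding exons held 16, other exon sequence 8, and 31 lay downstream. The summits that did not overlap an IDR peak, 144 of the 152, had a median signal of 6.38 and reached 22.1, the upstream sys-1 interval.

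The replicates gave similar values at 3 of the 8 IDR peaks and different ones at the others. The ratio of the deposited signals, replicate 1 over replicate 2, was 1.05 at the mom-1 intron, 1.06 at mig-5 and 1.02 at sys-1. It was 1.74 at pop-1, 0.747 at the upstream mom-1 peak, 0.475 at dsh-2, and 0.170 and 4.19 at the 2 lit-1 peaks. By rank in replicates 1 and 2, the sys-1 peak was at 64 and 55, the pop-1 peak at 384 and 1158, and the upstream mom-1 peak at 1815 and 1033. A peak that overlapped one of the 1358 strongest intervals in each replicate was found at 4 of the 30 genes, mom-1, mig-5, sys-1 and pop-1 (13.3%), against 5.88% of all protein-coding genes. With a reciprocal overlap of 50% 3 genes were left, without mom-1, against 5.52% of all protein-coding genes. The intronic mom-1 peak, 107 bp wide, is too narrow to cover 50% of either replicate interval. Its loss was therefore fixed by width and says nothing about replicate support.

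Across the 8 peaks, Pearson's r of log2 signal between replicates was 0.48 and Spearman's rho 0.57, against 0.21 and 0.23 over the 1337 IDR peaks seen in both relaxed replicate lists. Across the 27 genes with an interval in both, the strongest signals gave 0.84 and 0.71, against 0.66 and 0.55 over 15563 protein-coding genes. Among the 21 of them without an IDR summit the values were 0.40 and 0.39. These correlations are across peaks or genes that share 2 libraries and 1 caller, and are given as a description.

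**Figure D4:**
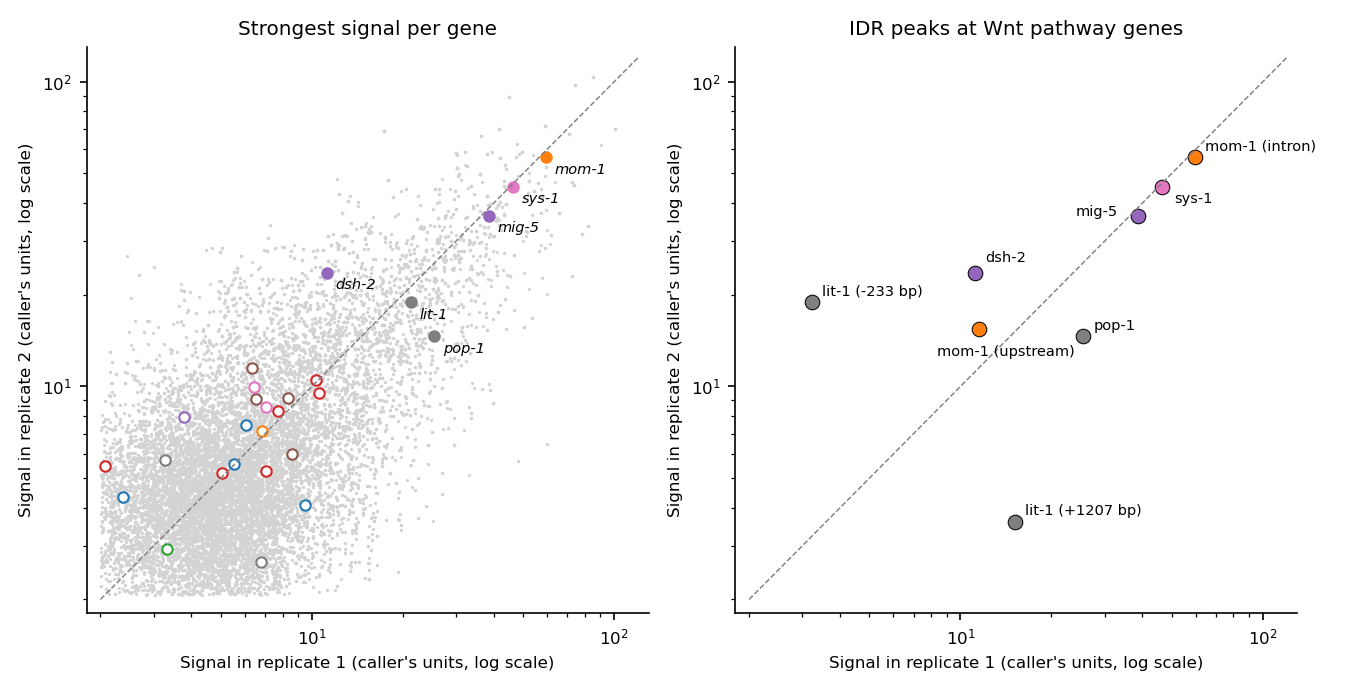
Signal in replicate 1 against replicate 2 (both log scales, the authors' caller units), left for the strongest interval per gene with all protein-coding genes in grey and Wnt pathway genes coloured by role as in the plot of strongest signals, filled where they have an IDR summit, and right for the 8 IDR peaks. mom-1 (intron), sys-1 and mig-5 lie close to the dashed line of equal signal, and the lit-1 peaks lie far to either side of it.

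Further genes of the pathway were taken from 2 lists, chosen from textbook knowledge with earlier results of these data known. Of their 27 symbols, 26 matched the annotation. Because of that choice, and without matching for window length, the shares and medians of both lists are a description alone. Of 14 other pathway genes, 3 had an IDR summit in the gene or within 3 kb, against 10.7% of all protein-coding genes. The summit at cbp-1, whose product is a histone acetyltransferase of the CBP/p300 family, lay 909 bp upstream with signal 118. mtm-3, a myotubularin gene, had 64.1 at 1013 bp upstream, a summit also counted for xbx-5, and 60.8 in an intron. plr-1, a transmembrane ubiquitin ligase gene that lowers surface Frizzled, had 31.5 at 1115 bp downstream. That summit was 7135 bp from the nearest TSS of plr-1 and was also counted for bed-2. The others had strongest pooled signals of 6.62 to 24.2.

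Of 12 genes that are Wnt targets or act after Wnt in asymmetric divisions, 3 had an IDR summit, against the same 10.7%. Neither count was tested. tlp-1, a zinc finger gene of the tail lineage, had 108 at 137 bp upstream and 57.5 at 1764 bp downstream. The downstream summit was also counted for T23G4.127. egl-18, a GATA factor gene of the seam, had overlapping intronic peaks of 65.2 and 41.0, and the Hox gene lin-39 had 29.4, 33 bp downstream of its TSS. The median of the strongest pooled signal was 15.9 in the first list and 15.5 in the second, against 7.54 for all protein-coding genes.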

How the data were processed

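Whole-larva CEH-16 ChIP-seq of 2 replicates was analysed from 4 deposited ce11 interval lists. Per the file headers and the deposited readme, the relaxed lists hold peaks and background intervals made from replicate 1, replicate 2 or both alignments with a control, and the optimal IDR list derives from those 3. The deposited signal (column 7) is the enrichment value of the authors' caller, and column 10 is the offset of the summit from the interval start. Which aligner, caller and IDR threshold were used is not given in the sources used here. The ce10 lists were not used. Read depth is unknown.

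Genes and transcripts came from Ensembl release 115 (WBcel235, the build of ce11), and all 30 names matched. A gene had a summit when one lay in it or within 3000 bp. The background is the share of all 19973 protein-coding genes under the same rule. A replicate's top intervals are its 1358 of highest signal, and lists overlap by at least 1 bp. All 30 genes are named, and of 2 further lists only the genes with an IDR summit. Those of the 30 with an IDR summit are given in full and the others by their strongest pooled interval, and sequences are shown for the strongest IDR peak of 4 of the 6 genes that have one. Pathway members and lists were chosen with earlier results of these data known. No p-values were computed. The window rule was tested on simulated data with known answers. Python 3.11.15, numpy 2.4.6, pandas 2.3.3 and scipy 1.17.1 were used.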

Additional observations from a re-analysis of the deposited data

How the results depend on the processing

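The count of 6 Wnt pathway genes with an IDR summit stayed within 1.5 times under 9 of 10 alternatives. For so small a count this band is wide, and a count of 4 lies at its edge. The count was 5 with the top intervals of replicate 1 alone, where dsh-2 was lost (10.4% of all protein-coding genes). It was 6 with those of replicate 2 alone (11.4%). lit-1 was kept in both, but at different places. Its top intervals had signals 21.3 and 15.1 in replicate 1, and 18.9 in replicate 2. The count was 2 in the gene body alone. The share of all protein-coding genes, 10.7% in the main setting, was 6.44% with 1000 bp, 1.67% in the gene body alone, 5.62% with IDR peaks at or above the median signal, 5.23% for the nearest gene alone and 5.15% for the nearest TSS alone. Each of these narrows the rule by construction. With IDR peaks at or above the median signal, 33.5, 4 genes were left, mom-1, mig-5, sys-1 and pop-1. With 5000 bp there were 8, gsk-3 and wrm-1 being added, against 14.4% of all protein-coding genes. A pooled summit was at 15 genes rather than 29 when signals under 11.6 were left out. Leaving out IDR peaks that overlap a tRNA gene, chosen after seeing the data, gave 6 genes and 10.4%. The count could not change here, because mom-1, the only gene affected, keeps its intronic peak. No paired analysis was possible because there is 1 group. Read depth is unknown and no untagged library was analysed here, which limits what a missing or weak interval shows.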
